A study of Mus musculus with 6 samples.

Results

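The rod phototransduction and outer segment genes described here are 34 genes of rod photoreceptors, listed by name for their known roles, out of 32285 genes in the deposited count table. All 34 were matched by symbol through their Ensembl identifiers and all passed the filter on low counts. Retinal RNA of wild-type C57BL/6J mice at PN18 had been sequenced in 3 libraries for OIR-CIH and 3 for OIR-Norm, with total counts between 26289905 and 38010151. Pups of both groups had been kept with their mothers at 75% O2 from PN8 to PN13, which obliterates the central retinal capillaries (oxygen-induced retinopathy, OIR). OIR-CIH pups then underwent chronic intermittent hypoxia for 10 h per day, in 266 daily cycles between 20.95% and 5% O2, while OIR-Norm pups received the same gas flow and noise at constant O2. No retina without the hyperoxia was sequenced, so each comparison is between OIR retinas. Xist (298.5 to 1653 CPM) and Y-linked RNA (57.3 to 184 CPM summed over 4 genes) were both present in every library. The study's methods count 3 eyes per group but do not give the number of animals behind each library, and n here counts libraries. A retina below stands for a library, which may hold RNA of several animals and of both sexes.

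Rods detect single photons with a cascade held in the stacked membrane discs of the outer segment. Activated visual pigment switches on transducin, transducin releases the inhibition of a cGMP phosphodiesterase, and the fall in cGMP closes cation channels in the plasma membrane. Kinase, arrestin and GTPase-accelerating proteins then end the response, and calcium sensors and guanylate cyclases restore cGMP. Discs are renewed daily, so that a rod keeps very abundant mRNA for these proteins, which are made in the inner segment.

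The retinas expressed the whole machinery. The members took between 5.55% and 6.74% of all counts in each retina, with at least 3848 reads on each gene in each retina. Per kb of transcript, the level of the members ranged from 29.1 CPM per kb for Gucy2f to 4194 CPM per kb for Gnat1, in means over the 6 retinas. Markers of bipolar, amacrine and ganglion cells and of Müller glia were also present in each retina. So were those of cones, with no marker at 0 in any library.

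**Figure D1:**
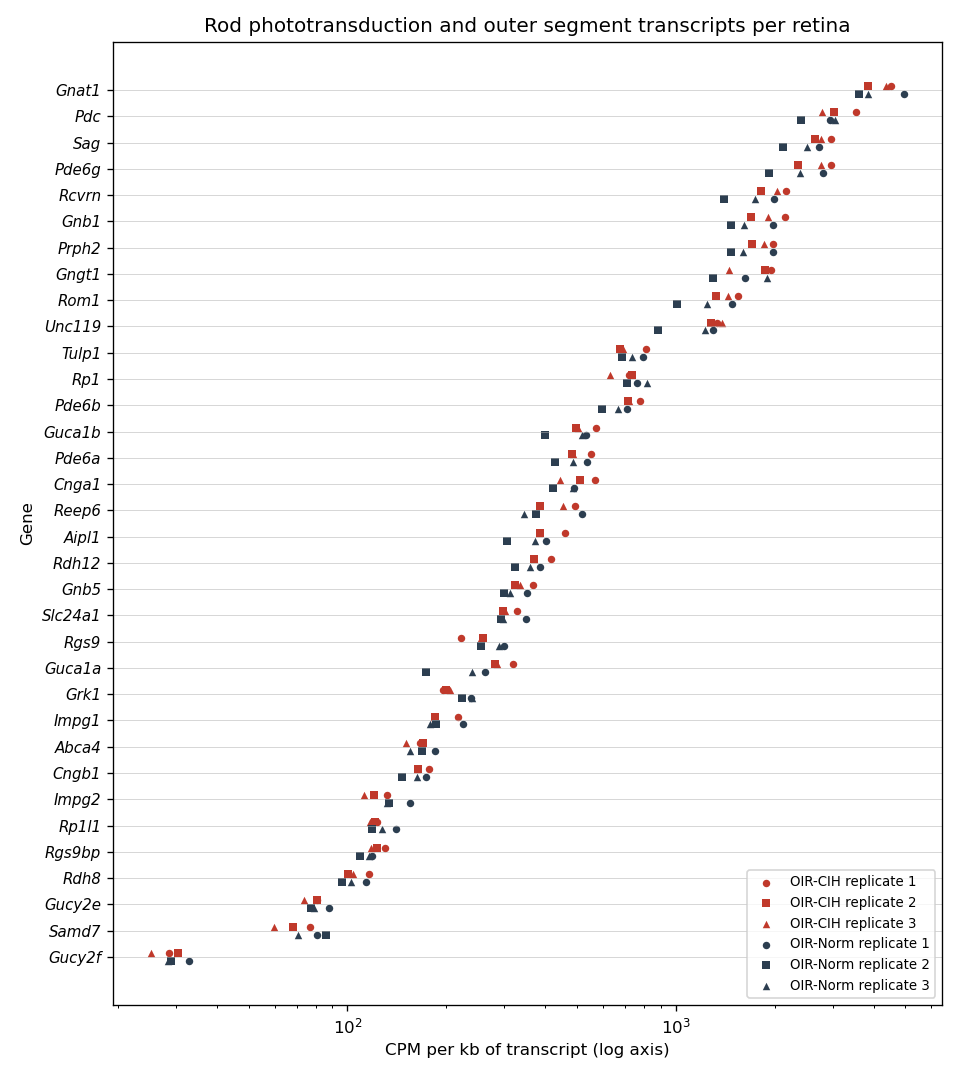
Levels of the 34 members in the 6 retinas, in CPM per kb of transcript on a log axis, with genes ordered by their mean. Red symbols are OIR-CIH and dark symbols OIR-Norm retinas, and the marker shape gives the replicate. The groups lie on top of each other for most genes, from Gucy2f at a mean of 29.1 to Gnat1 at 4194 CPM per kb.

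Upstream sequence was available for 25 of the 34 members in RefSeq windows of GRCm38.p6, and the 250 bases before the start were searched on both strands for the core site of the photoreceptor factor CRX (TAATCC, reverse GGATTA). This core was found for 12 of the 25 members (48.0%), against 7.21% of 27025 genes with a window. A relaxed core differing in 1 base (TAAGCC, reverse GGCTTA) was present for 9 members (36.0%), against 9.35% of genes. The half-site of NRL, the factor that specifies rods (TGCTGA, reverse TCAGCA), was present for 6 members (24.0%), against 18.02% of genes. Matches are letters in a window and no evidence of binding. The windows of 4 members follow, with these motifs in capitals. Pde6b, Guca1a and Grk1 were the members whose groups of retinas did not overlap (3 of 34, 8.82%, against 18.4% of all genes tested), and Sag held all 3 motifs. The windows are chr5:108388123-108388372 (+ strand), chr17:47400607-47400856 (- strand), chr8:13404831-13405080 (+ strand) and chr1:87803430-87803679 (+ strand), each written 5′ to 3′ on the gene's strand.
Pde6b: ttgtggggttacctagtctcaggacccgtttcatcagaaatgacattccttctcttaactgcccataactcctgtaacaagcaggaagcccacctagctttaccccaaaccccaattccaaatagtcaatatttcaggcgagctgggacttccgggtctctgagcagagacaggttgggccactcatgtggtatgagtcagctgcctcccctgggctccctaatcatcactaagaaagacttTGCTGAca
Guca1a: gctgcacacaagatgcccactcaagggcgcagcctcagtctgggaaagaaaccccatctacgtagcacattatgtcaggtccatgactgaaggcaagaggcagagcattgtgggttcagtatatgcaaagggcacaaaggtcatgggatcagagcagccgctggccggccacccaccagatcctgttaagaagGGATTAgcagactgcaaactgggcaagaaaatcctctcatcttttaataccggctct
Grk1: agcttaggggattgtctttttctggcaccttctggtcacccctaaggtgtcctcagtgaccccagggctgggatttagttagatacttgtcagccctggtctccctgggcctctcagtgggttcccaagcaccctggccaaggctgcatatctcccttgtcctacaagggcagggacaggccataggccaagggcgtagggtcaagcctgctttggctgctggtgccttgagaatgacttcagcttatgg
Sag: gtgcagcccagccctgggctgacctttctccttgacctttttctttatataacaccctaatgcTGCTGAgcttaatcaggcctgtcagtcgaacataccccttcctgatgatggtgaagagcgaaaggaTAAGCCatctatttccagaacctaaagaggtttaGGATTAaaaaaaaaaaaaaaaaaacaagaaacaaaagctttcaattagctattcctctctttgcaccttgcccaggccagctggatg
Guca1a had 1 CRX core in this window, Pde6b had 1 NRL half-site, and the window of Grk1 held none of the searched letters. Members with a CRX core lay on both sides of 0 in OIR-CIH over OIR-Norm, such as Guca1a (log2 fold change 0.39) and Samd7 (-0.22). A relation between motifs and the direction of change was not tested.

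To ask whether CIH was accompanied by another level of these transcripts, OIR-CIH was compared with OIR-Norm by edgeR's quasi-likelihood test over 20021 genes. None of the 34 members passed the thresholds, which were an adjusted p under 0.05 (Benjamini-Hochberg) and a log2 fold change beyond 0.5, while 63 of all genes did (0.315%). Without the minimum fold the count of members was also 0, against 78 of all genes (0.39%). At an unadjusted p under 0.05 edgeR counted 2 members, Guca1a and Grk1 (5.88% of members, against 13.2% of all genes), limma-voom 5 (14.7%, against 12.8%) and DESeq2 8 (23.5%, against 11.1%). The share of members was thus below that of all genes in edgeR and above it in the other two tools. DESeq2 and limma-voom called 0 members as well. In OIR-CIH 22 members were higher and 12 lower, and their median log2 fold change was 0.10, where all genes had 49.5% higher and a median of -0.0029. Log2 fold changes ran from -0.22 (Grk1) to 0.39 (Guca1a), with standard errors between 0.086 and 0.16. The 95% interval lay within 0.5 of 0 on the log2 scale for 28 of the 34 members. For the other 6 (Gnb1, Guca1a, Pde6g, Rcvrn, Rom1 and Unc119) it reached beyond 0.5 on the higher side, at most to 0.66 for Guca1a. In whole retinas, a change in the number of rods and a change in RNA per rod cannot be told apart.

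**Figure D2:**
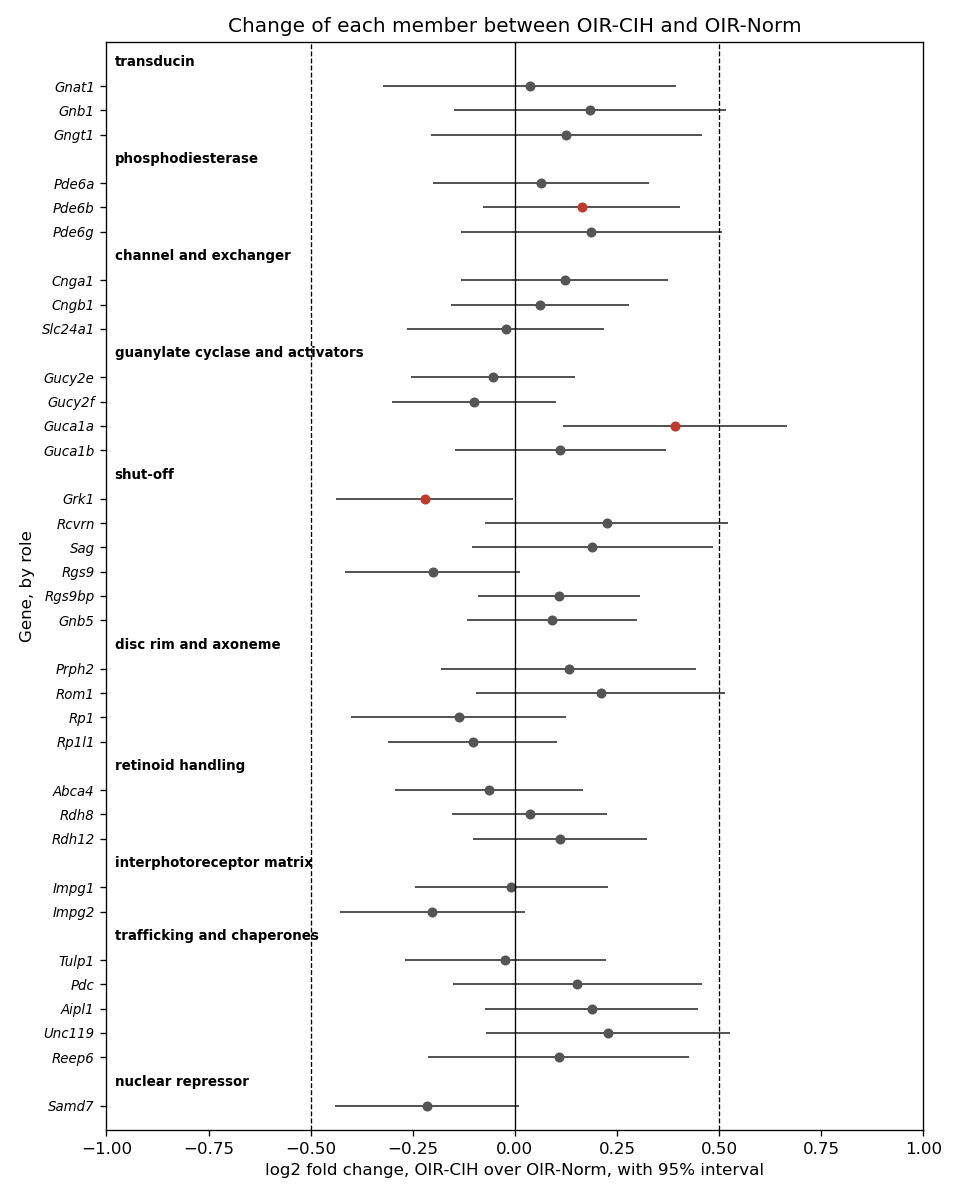
Log2 fold change of each member in OIR-CIH over OIR-Norm with its 95% interval from edgeR, by role. Dashed lines mark 0.5 in either direction, and red points are the 3 members whose groups did not overlap. All points lie between -0.22 and 0.39.

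Summed over the members, OIR-CIH replicates 1 to 3 had 69568, 61332 and 63224 CPM, and OIR-Norm replicates 1 to 3 had 68537, 53846 and 60789 CPM. OIR-CIH averaged 64708 ± 4314 CPM (SD, n = 3) against 61058 ± 7349 CPM (SD, n = 3) in OIR-Norm, and the groups overlapped. OIR-Norm replicate 2 was the lowest retina for 22 of the 34 members, whereas OIR-CIH replicate 1 was the highest for 19 and OIR-Norm replicate 1 for 11. Without OIR-Norm replicate 2 the median log2 fold change of the members was -0.0044, with 16 higher, and without OIR-Norm replicate 1 it was 0.15, with 26 higher. These were the lowest and the highest values over the omissions of single retinas. The direction of the list therefore depended on which retinas were included. OIR-Norm replicate 2 also stood apart in lens crystallin and fibre genes, with 469 CPM summed over 6 genes against 13.5 to 79.8 CPM in the other retinas, and all 6 lens genes were lower in OIR-CIH with none passing the test, whereas without this retina all 6 were higher. In OIR-CIH replicate 1 and OIR-Norm replicate 1, where the members were highest, the sum of 12 pigment epithelium genes was also highest, at 731 and 689 CPM. That sum was 493 to 731 CPM in OIR-CIH and 327 to 689 CPM in OIR-Norm, with 7 of the 12 genes higher, 0 called and no marker at 0. Without OIR-Norm replicate 1, 9 of the 12 were higher and 3 were called, while without any other single retina 0 were called. Across these omissions between 35 and 104 of all genes were called. Xist was also highest in OIR-Norm replicate 2 (1653 CPM) and lowest in OIR-Norm replicate 1 (298.5 CPM). Y-linked RNA was at 69.7 and 172 CPM in these, and lowest in OIR-CIH replicate 1 (57.3 CPM). The part of lens or pigment epithelium RNA, or of sex, in these values was not tested.

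**Figure D3:**
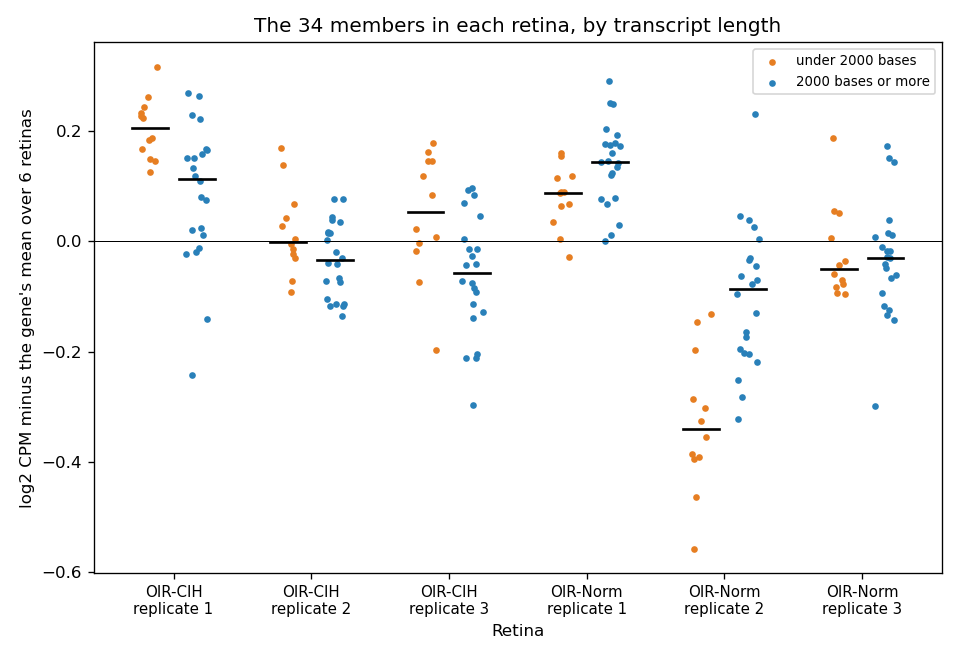
Each of the 34 members in each retina, as log2 CPM minus the mean of that gene over the 6 retinas. Orange points are the 12 members with transcripts under 2000 bases, blue points the 22 longer ones, and black bars are medians. The shorter members lie lowest in OIR-Norm replicate 2 (median -0.34) and highest in OIR-CIH replicate 1 (median 0.21).

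Transducin is the trimeric G protein that couples the pigment to the phosphodiesterase. Gnat1, which encodes its rod alpha subunit, had 10534, 8941 and 10186 CPM in OIR-CIH and 11549, 8428 and 8945 CPM in OIR-Norm. These values overlapped throughout, with a log2 fold change of 0.04 (edgeR, adjusted p = 0.947, standard error 0.16). Gnb1, the beta subunit, which many other cells also use, was at 6732, 5336 and 5984 CPM in OIR-CIH and at 6195, 4616 and 5083 CPM in OIR-Norm. It was 0.18 higher on the log2 scale (edgeR, adjusted p = 0.652, standard error 0.15), within the spread between retinas. Gngt1, the rod gamma subunit, ranged from 1538 to 2300 CPM over the 6 retinas, at a log2 fold change of 0.13.

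Phosphodiesterase 6 of rods has a pair of catalytic subunits, encoded by Pde6a and Pde6b, and an inhibitory gamma subunit, encoded by Pde6g. Pde6b had 2181, 1998 and 2008 CPM in OIR-CIH and 1986, 1673 and 1866 CPM in OIR-Norm. Every OIR-CIH retina was above every OIR-Norm retina, the closest by 1998 against 1986 CPM, and the log2 fold change of 0.16 (standard error 0.11) did not pass the test (adjusted p = 0.561 from edgeR). Pde6g, the most abundant of the 3 per kb, had 2667, 2115 and 2490 CPM in OIR-CIH and 2517, 1724 and 2145 CPM in OIR-Norm, which overlapped. Pde6a ranged from 1966 to 2529 CPM, at a log2 fold change of 0.06.

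Of the members, 3 had groups that did not overlap (8.82%), namely Guca1a and Pde6b on the higher and Grk1 on the lower side. Over all genes tested the share was 18.4%, with 9.12% apart on the higher and 9.26% on the lower side, which was above the share among the members. With counts scaled by library totals alone 8 members were apart, 4 in each direction, which at 23.5% was above the 18.1% of all genes. Without OIR-Norm replicate 1, 15 members were apart, 14 of them higher, which was 44.1% against 31.5% of all genes, while without any other single retina the share of members was below that of all genes.

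The cGMP-gated channel of rods is built from Cnga1 and Cngb1 subunits, and Slc24a1 encodes the sodium, calcium and potassium exchanger beside it. Cnga1 had 1554, 1398 and 1213 CPM in OIR-CIH and 1336, 1158 and 1334 CPM in OIR-Norm. Its lowest OIR-CIH value lay among the OIR-Norm values, and its log2 fold change was 0.12 (edgeR, adjusted p = 0.698, standard error 0.12). Cngb1 (906 to 1094 CPM) and Slc24a1 (1535 to 1824 CPM) had log2 fold changes of 0.06 and -0.02.

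Guanylate cyclases and their calcium-sensing activators resynthesize cGMP. Guca1a, which encodes the activator GCAP1 and is used by rods and cones, had 278, 246 and 249.95 CPM in OIR-CIH and 229, 152 and 209 CPM in OIR-Norm. All OIR-CIH retinas lay above all OIR-Norm retinas, and OIR-Norm replicate 2 was lowest. The log2 fold change of 0.39 (standard error 0.13, 95% interval from 0.12 to 0.66) had the lowest p of the members, with an adjusted p of 0.252 from edgeR. Across the alternatives this adjusted p went from 0.0455 to 0.588, the lowest without a filter beyond a single count, and without OIR-Norm replicate 2 the log2 fold change was 0.24. Guca1b, which encodes the activator GCAP2, had 949.8, 826 and 839 CPM in OIR-CIH and 888, 666 and 866 CPM in OIR-Norm, which overlapped. Of the cyclases, Gucy2e (615 to 734 CPM) and Gucy2f (204 to 267 CPM) had log2 fold changes of -0.05 and -0.10.

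Shut-off of the response starts when Grk1, the rhodopsin kinase, phosphorylates the pigment. Grk1 had 1456, 1480 and 1527 CPM in OIR-CIH and 1762, 1658 and 1782 CPM in OIR-Norm. No OIR-CIH value reached the OIR-Norm range, at a log2 fold change of -0.22 (standard error 0.099), with an unadjusted p of 0.0442 and an adjusted p of 0.366 from edgeR. With any single retina omitted, the log2 fold change of Grk1 lay between -0.25 and -0.20. Sag encodes arrestin, which caps the phosphorylated pigment. It had 5089, 4568 and 4750 CPM in OIR-CIH and 4697, 3634 and 4301 CPM in OIR-Norm, an overlap of the groups at a log2 fold change of 0.19 (standard error 0.14). Rcvrn, the calcium sensor that restrains Grk1, ranged from 1460 to 2247 CPM, at a log2 fold change of 0.22. Rgs9 speeds GTP hydrolysis by transducin together with Gnb5 and the membrane anchor Rgs9bp. Rgs9 ranged from 512 to 692 CPM at a log2 fold change of -0.20 (unadjusted p = 0.0609 from edgeR), while Rgs9bp (717 to 859.7 CPM) and Gnb5 (539 to 661 CPM) were at 0.11 and 0.09. Rcvrn, Gnb5 and Pdc overlap annotated genes on the opposite strand, of which Glp2r, opposite Rcvrn, had a mean of 128 CPM. Which strand column was kept is not stated, so that reads of these pairs may be shared.

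Discs are shaped by the rim proteins Prph2 (peripherin 2) and Rom1, and aligned by the axonemal proteins Rp1 and Rp1l1. Prph2 had 5252, 4546 and 4954 CPM in OIR-CIH and 5278, 3926 and 4264 CPM in OIR-Norm. The highest and the lowest value were both from OIR-Norm retinas, and the log2 fold change was 0.13 (standard error 0.14). Rom1 was at 2353, 2008 and 2189 CPM in OIR-CIH and at 2245, 1533 and 1886 CPM in OIR-Norm, a log2 fold change of 0.21 (adjusted p = 0.553 from edgeR) with overlapping groups. Rp1 (2618 to 3413 CPM) and Rp1l1 (781 to 939.5 CPM) had log2 fold changes of -0.14 and -0.10.

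Bleached retinal is carried across the disc membrane by the flippase Abca4 and reduced by Rdh8 and Rdh12. Rdh12 had 697, 622 and 619 CPM in OIR-CIH and 649, 541 and 605 CPM in OIR-Norm, which overlapped at a log2 fold change of 0.11. Abca4 (1092 to 1343 CPM) and Rdh8 (135 to 164 CPM) were at -0.06 and 0.04. Impg1 and Impg2 encode proteoglycans of the matrix around the segments. Impg2 had 912, 829 and 775 CPM in OIR-CIH and 1066, 921 and 907 CPM in OIR-Norm. Only OIR-CIH replicate 1 reached into the OIR-Norm range, and the log2 fold change was -0.20 (edgeR, unadjusted p = 0.0742, adjusted p = 0.433, standard error 0.10). Impg1 had 642, 549.6 and 545 CPM in OIR-CIH and 666, 551 and 530.4 CPM in OIR-Norm, with no separation of the groups and a log2 fold change of -0.0088.

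Among the trafficking and chaperone genes, Pdc encodes phosducin, which binds transducin beta and gamma subunits. It had 4391, 3772 and 3481 CPM in OIR-CIH and 3674, 3004 and 3793 CPM in OIR-Norm, which overlapped. Unc119, a lipid-binding carrier of transducin alpha, had 1768, 1699.6 and 1834 CPM in OIR-CIH against 1722, 1175 and 1628 CPM in OIR-Norm. Its groups overlapped by OIR-Norm replicate 1, at a log2 fold change of 0.23 (edgeR, adjusted p = 0.506, standard error 0.14). Aipl1, a chaperone of phosphodiesterase 6 (707 to 1064 CPM) was at 0.19, Reep6 (760.3 to 1144 CPM) at 0.11 and Tulp1 (1412 to 1696 CPM) at -0.02, all with adjusted p over 0.5. Samd7, a transcriptional repressor of non-rod genes, had 243, 214 and 187 CPM in OIR-CIH and 255, 270.2 and 223 CPM in OIR-Norm. OIR-CIH replicate 1 reached into the OIR-Norm range, and the log2 fold change was -0.22 (edgeR, unadjusted p = 0.0576, adjusted p = 0.395, standard error 0.10).

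The fold changes of the members were ordered by transcript length. All 12 members with transcripts under 2000 bases were higher in OIR-CIH (median log2 fold change 0.17), whereas of the 22 longer members 10 were higher and 12 lower, with a median of -0.015. Across the 34 members Spearman's rho between log2 fold change and transcript length was -0.72 (Pearson r = -0.68 with log2 length). Genes are not independent replicates here, since all points come from the same 6 libraries. The trend was not limited to rod genes, as rho was -0.35 over 14760 genes with a mean of at least 1 CPM. Over the members, the deviation of each retina from the gene means had its largest rho with length in OIR-Norm replicate 2, at 0.79. This rho was -0.71 in OIR-CIH replicate 1 and -0.60 in OIR-CIH replicate 3. In the remaining libraries it lay between -0.14 and 0.35. Over the 14760 genes the same rho was 0.37 in OIR-Norm replicate 2 and -0.38 in OIR-CIH replicate 1. It was only -0.081 in OIR-CIH replicate 3, and in the remaining libraries it lay between -0.15 and 0.090. The trend of the members in OIR-CIH replicate 3 was thus hardly seen over all genes. When the length trend of each library was removed by an offset, an alternative added after the data were seen, 23 members were higher and 11 lower, with a median log2 fold change of 0.04, 0 were called and rho was -0.31. Guca1a was then at 0.27 and Grk1 at -0.13, with unadjusted p of 0.0167 and 0.211 from edgeR. Rgs9 at -0.24 and Samd7 at -0.23 then had unadjusted p under 0.05 in edgeR, at 0.0243 and 0.0426, where they had been at 0.0609 and 0.0576, and the adjusted p of all 4 was at least 0.322. The source of the length trend was not tested.

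**Figure D4:**
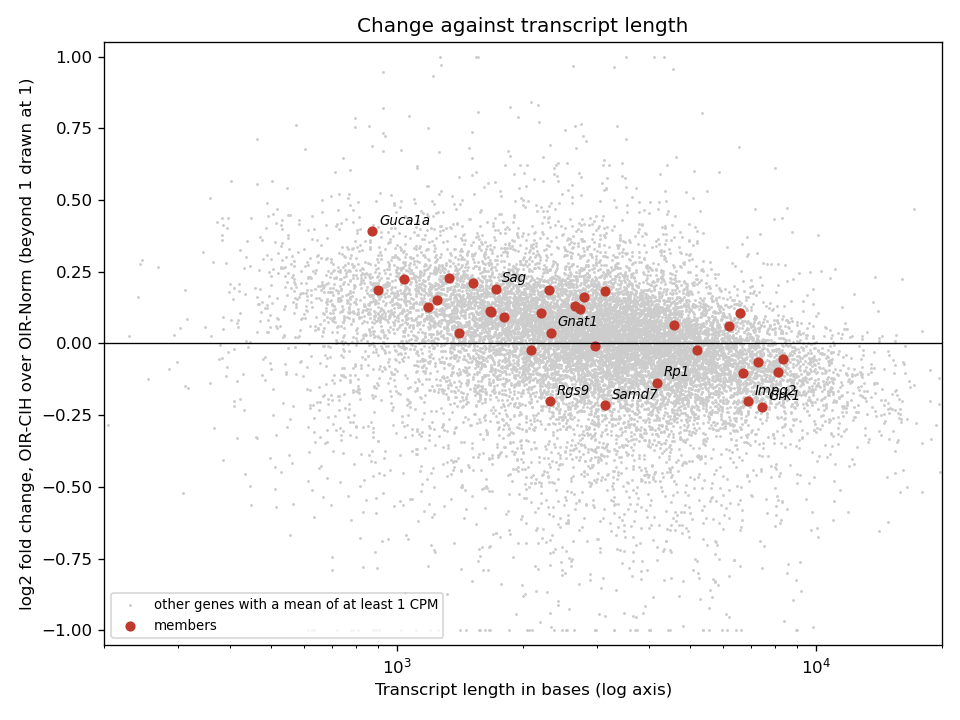
Log2 fold change in OIR-CIH over OIR-Norm against transcript length on a log axis, for the 34 members in red and for other genes with a mean of at least 1 CPM in grey. All 12 members under 2000 bases lie above 0, and Spearman's rho is -0.72 for the members and -0.35 for all 14760 genes.

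Ratios of CPM per kb between partner genes within a retina were taken for 12 pairs, formed after the values had been seen, without a test and without a background share. Some partners, such as Gnb1 and Guca1a, are also used by other cells than rods. The groups were apart in 6 pairs and overlapped in 6. Among the 6 pairs apart the shorter transcript was relatively higher in OIR-CIH in 4 and the longer in 2. Of these, Guca1b to Guca1a, Sag to Grk1 and Pde6a to Pde6b each hold a member whose own groups did not overlap. Their separation is therefore no further evidence about those members. The ratio of Guca1b to Guca1a was 1.79, 1.76 and 1.76 in OIR-CIH and 2.03, 2.30 and 2.17 in OIR-Norm. That of Sag to Grk1 was 15.1, 13.3 and 13.4 in OIR-CIH against 11.5, 9.47 and 10.4 in OIR-Norm. In both of these the shorter transcript was relatively higher in OIR-CIH. Gnat1 to Gnb1 was apart as well, at 2.11, 2.26 and 2.30 in OIR-CIH and 2.52, 2.47 and 2.38 in OIR-Norm, with Gnat1 the shorter transcript but relatively lower in OIR-CIH. Rgs9bp to Rgs9 was 0.589, 0.475 and 0.463 in OIR-CIH and 0.398, 0.425 and 0.403 in OIR-Norm, with the longer Rgs9bp transcript relatively higher in OIR-CIH. The other two pairs apart had the shorter transcript relatively higher. Pde6a to Pde6b had 0.707, 0.678 and 0.676 in OIR-CIH and 0.757, 0.717 and 0.731 in OIR-Norm. Impg2 to Impg1 had 0.612, 0.649 and 0.612 in OIR-CIH and 0.689, 0.720 and 0.736 in OIR-Norm. Prph2 to Rom1 was between 1.27 and 1.46 in all 6 retinas and overlapped, as did Cnga1 to Cngb1 between 2.73 and 3.21, Gucy2e to Gucy2f between 2.64 and 2.93, Pde6b to Pde6g between 0.254 and 0.312, Rp1 to Rp1l1 between 5.38 and 6.41 and Gnat1 to Gngt1 between 2.03 and 3.05.

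Other genes of photoreceptors were read in the same fit. Of 23 further rod and photoreceptor genes 15 were higher and 8 lower, with a median log2 fold change of 0.06 and 0 called. Without OIR-Norm replicate 2 the counts were 12 and 11, and they were the same without OIR-CIH replicate 1. Fscn2, an actin-bundling protein of the disc-forming region, was at 0.44, Nxnl2, a photoreceptor survival factor, at 0.30 and Rpgr, a protein of the connecting cilium, at -0.37, with adjusted p of 0.169, 0.264 and 0.281 from edgeR. Of 12 cone phototransduction genes 8 were higher and 4 lower, with a median of 0.08 and 0 called. Kcne2 was at 0.41, Opn1mw, the medium-wavelength cone opsin, at -0.30 and Gnat2, cone transducin alpha, at 0.19, with adjusted p of 0.179, 0.277 and 0.422 from edgeR. Of 14 photoreceptor fate factors 7 were higher and 7 lower, with a median of 0.01. Nr2e3, which represses cone genes in rods, had 1599, 1533 and 1309 CPM in OIR-CIH and 1085, 894 and 1057 CPM in OIR-Norm. Its groups were apart, at a log2 fold change of 0.55 (standard error 0.12) and an adjusted p of 0.0764 from edgeR, so that it missed the threshold. It passed with DESeq2, with limma-voom and without a filter beyond a single count, and its adjusted p was 0.372 without OIR-CIH replicate 1. Nr2e3 also stands in a gene list that the study made on these samples, so its direction is no independent evidence. Otx2 and Nrl, which drive photoreceptor and rod fate, were at 0.21 and 0.34, with adjusted p of 0.309 and 0.316 from edgeR. Of the inner retinal lists, 5 of 10 bipolar, 9 of 12 amacrine and ganglion and 4 of 8 Müller glia markers were higher, and 0 were called. Without OIR-CIH replicate 2, 5 of the 12 amacrine and ganglion markers were higher. Of 8 microglia markers 7 were lower with 0 called, and at least 7 were lower with any single retina omitted, 1 of them called without OIR-CIH replicate 3. Of 6 endothelial markers 6 were lower with 0 called, but OIR-Norm replicate 2 was the highest library for 5 of the 6, and without it 4 were higher and 2 lower. Whether the members differed from any of these lists was not tested.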

How the data were processed

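Retinal poly(A) RNA of 3 OIR-CIH and 3 OIR-Norm libraries (TruSeq Stranded mRNA) was measured. The authors deposited raw read counts per gene, made with STAR 2.7.9a gene counting; the study's methods name an Ensembl annotation while the submitters' processing notes name GRCm38, and the table carries no coordinates. Symbols were assigned to 32158 of 32285 identifiers. The 20021 genes whose counts summed to 10 or more were tested with edgeR 4.0.16 in R 4.3.3 (TMM scaling, quasi-likelihood test, Benjamini-Hochberg adjustment), with the study's thresholds of adjusted p under 0.05 and absolute log2 fold change over 0.5. Intervals are 95% and were taken from the same fit. CPM are TMM-scaled, and transcript length is that of the principal transcript in GENCODE M21. The scripts were tested on simulated data.

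The members and lists were chosen with earlier results of these data known. Values in each retina are given for members with an adjusted p under 0.05, and in each role for the member of lowest p and the one of highest level per kb. The others are given by their range. From other lists at most 3 genes of lowest p are named. Alternatives were DESeq2 1.42.0, limma-voom (limma 3.58.1), other scalings and filters, a replicate block, omission of single retinas and removal of a transcript length trend, the last chosen once the data had been seen. The reported fit did not treat samples of the same replicate number as pairs. Replicates differed beyond sampling noise (chi-square per degree of freedom 11.7 to 23.8), so none was counted as a duplicate. Where nothing says that libraries came from separate animals, p-values measure only the spread between these libraries. With 3 against 3 retinas an exact permutation test cannot go below p = 0.1, so none is given. Promoter windows are from RefSeq.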

Additional observations from a re-analysis of the deposited data

How the results depend on the processing

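No member was called under any alternative run. Of 306 member fold changes in the 9 settings that kept all retinas, 301 kept their direction and their side of the threshold, and 5 changed sign, all with the length trend removed and all near 0 (Gnat1 -0.0047, Slc24a1 0.022, Gucy2e 0.050, Abca4 0.022 and Rdh8 -0.055 on the log2 scale). With every gene of at least 1 count tested, 1 member (Guca1a) had an adjusted p under 0.05 in edgeR, at 0.0455, without reaching the minimum fold. In that setting 213 of all genes were called, against 63 in the reported fit. A call also needs the minimum fold, so these counts are no background for that member. DESeq2 called 135 genes. With library totals as the scaling, 8 members had groups that did not overlap (23.5%, against 18.1% of all genes); the cause was not tested. The correlations of deviations between same-numbered samples were 0.149, 0.132 and -0.234. Without a reference from differently numbered samples they cannot decide whether the replicate numbers pair the samples. With the replicate number as a block 84 genes and 0 members were called, and Nr2e3 passed.

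Leaving out 1 retina at a time gave between 35 called genes (OIR-CIH replicate 1 omitted) and 104 (OIR-Norm replicate 3 omitted), 16 to 26 members higher, and medians from -0.0044 to 0.15. Members whose groups did not overlap numbered 15 (44.1%, against 31.5% of all genes) without OIR-Norm replicate 1 and 5 to 7 (14.7% to 20.6%, against 25.7% to 30.2%) without any other retina. Of 204 member values 184 kept their direction and 20, in 11 members, changed sign. Their log2 fold changes ran from -0.052 to 0.18 for Gnat1, -0.0063 to 0.26 for Gngt1, -0.017 to 0.14 for Pde6a, -0.0025 to 0.11 for Cngb1, -0.071 to 0.059 for Slc24a1, -0.090 to 0.0017 for Gucy2e, -0.0098 to 0.18 for Guca1b, -0.033 to 0.10 for Rdh8, -0.092 to 0.093 for Impg1, -0.11 to 0.028 for Tulp1 and -0.0088 to 0.30 for Reep6. With 3 libraries per group, the precision is set by the spread between libraries rather than by depth. The reason is that each member had at least 3848 reads in each library.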
